A study of Mus musculus with 9 samples.

Results

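The Fc receptor genes of myeloid cells are described here in 9 bulk RNA libraries of mouse leukemia cells. They were chosen by name and are 7 of the 55536 genes of the expression table: Fcgr1, Fcgr3, Fcgr4, Fcgr2b, Fcer1g, Fcer1a and Fcgrt. The libraries came from acute myeloid leukemia (AML) made by a retrovirus that carries the MLL-AF9 fusion and GFP, placed in c-kit+ marrow cells of wild-type (WT) or IRF7-/- mice of the C57BL/6J strain. GFP+ leukemia cells were given at 1000000 per mouse to recipients of 6 to 8 weeks that had no irradiation, so the host kept its own blood cells. On day 18 leukemia cells were sorted from bone marrow by surface c-kit, and TruSeq RNA libraries were made from total RNA.

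There were 3 groups of 3 libraries. The labels AML-WT-c-kit- (WT c-kit- from here on) and, for the c-kit+ sort, AML-WT-c-kit+ (WT c-kit+) name the c-kit negative and c-kit positive cells of the WT leukemia, and the labels give their genotype as a GFP control. AML-IRF7-/--c-kit+ are the c-kit positive cells of a leukemia grown from marrow of the knockout mouse. No IRF7-/- c-kit negative group was analysed here. All groups carry MLL-AF9 and GFP and share strain, tissue, day and dose. The knockout mouse carries, in every cell, a beta-geo cassette with the PGK promoter that took the place of exons 2 and 3 of Irf7. The labels do not say whether the libraries of a group came from separate mice or from separate transductions, so p-values measure the spread between these libraries, which may be technical.

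Receptors for the Fc part of antibodies let myeloid cells bind and take up targets coated with IgG. Fcgr1, Fcgr3 and Fcgr4 encode activating IgG receptors that signal through the common gamma chain encoded by Fcer1g, whose ITAM motif is phosphorylated by Src family kinases and then recruits Syk. Fcgr2b encodes the inhibitory IgG receptor, which recruits the phosphatase SHIP1, Fcer1a the IgE-binding chain of mast cells and basophils, and Fcgrt the neonatal Fc receptor, which pairs with beta-2 microglobulin (B2m) and rescues IgG from lysosomes.

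By GENCODE M21 on GRCm38, 4 members lie close together on chromosome 1: Fcgr2b at chr1:170958617-170976547 on the minus strand, Fcgr4 at chr1:171018920-171029761 on the plus strand, Fcgr3 at chr1:171051174-171064935 and Fcer1g at chr1:171229572-171234365, both on the minus strand. From end to end they span 275.7 kb. Fcer1a lies on the same chromosome at chr1:173221284-173227214, Fcgr1 at chr3:96282909-96293969 and Fcgrt at chr7:45092990-45103851, all on the minus strand.

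Fcgr2b and Fcgr3 are near-identical in part of their coding sequence, and the longest identical run is shown because reads inside it cannot be assigned to one gene by sequence. It is 129 bases long, at coding bases 278 to 406 of Fcgr2b-201 and 263 to 391 of Fcgr3-201.
Fcgr2b and Fcgr3 shared run: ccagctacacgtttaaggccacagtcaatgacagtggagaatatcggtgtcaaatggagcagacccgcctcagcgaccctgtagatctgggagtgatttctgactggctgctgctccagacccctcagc
Of all windows of 50 bases in the longest coding sequence, 17.1% of those of Fcgr2b occur in a transcript of Fcgr3 and 22.07% of those of Fcgr3 in a transcript of Fcgr2b. No other pair of members shares a window of this length. How the authors' software divided such reads is not given in the sources used here, so the split between these genes is uncertain and their sum is given beside it.

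The promoters are shown for the 3 IgG receptors whose last 100 bases before the RefSeq start hold GAGGAA on either strand, a core read by PU.1, an ETS factor of myeloid cells. Capitals mark the match, here on the opposite strand, and the stretches are from RefSeq on GRCm38.p6.
Fcgr4, chr1:171018826-171018925, plus strand: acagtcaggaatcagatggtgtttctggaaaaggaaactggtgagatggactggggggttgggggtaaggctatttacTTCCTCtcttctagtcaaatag
Fcgr3, chr1:171059404-171059503, minus strand: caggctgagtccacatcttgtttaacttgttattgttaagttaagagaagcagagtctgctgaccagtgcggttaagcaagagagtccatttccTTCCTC
Fcgr1, chr3:96293970-96294069, minus strand: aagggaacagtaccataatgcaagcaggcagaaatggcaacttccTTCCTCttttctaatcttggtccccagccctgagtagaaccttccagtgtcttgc
All 7 members matched a RefSeq promoter of 250 bases before to 50 bases after the start. GAGGAA occurred in those of Fcgr1, Fcgr3, Fcgr4 and Fcer1a, against 28.3% of 27025 promoters of the same length. TTCNNNGAA, a form read by STAT factors, occurred in that of Fcgr1, against 8.5% of promoters. AANNGAAA, a form read by interferon regulatory factors, occurred in those of Fcgr2b and Fcgr4, against 24.2%. Both strands were searched, and in no member did matches of different motifs overlap. The RefSeq start of Fcgr3 lies inside the longer GENCODE gene. These letters are a description of the windows and not binding sites.

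The libraries were read first by the sorted and the targeted gene. Kit, the gene of c-kit, followed the sort with 0.52 to 3.03 TPM in WT c-kit- and 50.7 to 85.7 TPM in the c-kit+ libraries. TPM, the transcript unit of the table, is a level scaled by gene length and library total. Irf7 was 3.36 to 5.31 TPM in WT c-kit+ and 5.97 to 12.8 TPM in those with the label AML-IRF7-/--c-kit+. Its whole-gene level was thus not lower under the knockout label (log2 fold change 0.89, limma adjusted p = 0.0321). In WT c-kit- Irf7 was 22.3 to 32.3 TPM. Against it the log2 fold change was -2.38 in WT c-kit+ and -1.49 in the libraries with that label. The paper reports a check of IRF7 in its AML models by qRT-PCR and Western blot, whose values were not used here. The table gives 1 level for the whole gene, so the deleted exons could not be read apart from the rest. These libraries are therefore named by their label, written labelled IRF7-/- for short, and a direction given for them holds only under it. The genes listed under leukemia identity (Ptprc, Itgam, Kit, Hoxa9, Meis1) were all above 1 TPM in the mean of every group. Such levels in bulk RNA do not tell leukemia cells from host blood cells. The 12 neutrophil markers summed to 7676, 9016 and 31825 TPM in WT c-kit- libraries 1, 2 and 3, to between 69714 and 120249 TPM in WT c-kit+ and to between 12122 and 14722 TPM in those labelled IRF7-/-. Most of the labelled sum was Elane (6341 to 8771 TPM) and Mpo (3252 to 4313 TPM), genes of early granulocytic cells. Of the 12, all tested, 9 fell and none rose in the labelled libraries against WT c-kit+ (median log2 fold change -3.65), and 10 fell while Elane and Mpo rose against WT c-kit- (median -2.67). WT c-kit+ had 6 that rose and 1 that fell against WT c-kit- (median 1.98). The 8 monocyte markers summed to between 4950 and 6119, 2230 and 2632, and 2505 and 3097 TPM in the same order, and Ly6c2 alone made 2204 to 2799 TPM of the last. Of these 8, 4 fell and none rose in the labelled libraries against WT c-kit+ (median -1.17), with Cd14 at 5.39 to 14.8 against 53.9 to 76.4 TPM. Against WT c-kit- 7 fell in each c-kit+ group (median -2.59 in WT c-kit+, -3.70 in the labelled libraries). Over all genes 5.39% fell in the labelled libraries against WT c-kit+ and 11.9% against WT c-kit-. In WT c-kit+ against WT c-kit- 4.83% rose and 9.61% fell. Elane, Mpo, Ly6c2 and Cd14 were named after their values were seen. Both lists therefore move with the groups, and their part in the results was not tested beyond leaving the neutrophil markers out of the scaling. In bulk RNA, fewer cells of a type and less RNA per cell cannot be told apart.

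Fcer1g was the most abundant member in every library, and Fcgr3 and Fcgr2b came next. Fcgr4 was intermediate, Fcgrt was abundant in the c-kit negative cells, and Fcgr1 and Fcer1a were near 0. Between the c-kit+ groups Fcgr3 and Fcgr4 rose in the libraries labelled IRF7-/-, by 2.36 and 3.36 times in the means, while the inhibitory Fcgr2b was 1.23 times as high and did not pass the test. Between the WT groups Fcer1g and Fcgrt fell in c-kit+ cells, to levels 2.32 and 10.1 times lower. A gene is said to rise or fall where its log2 fold change was at least 1 in size with a limma Benjamini-Hochberg adjusted p under 0.05.

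**Figure D1:**
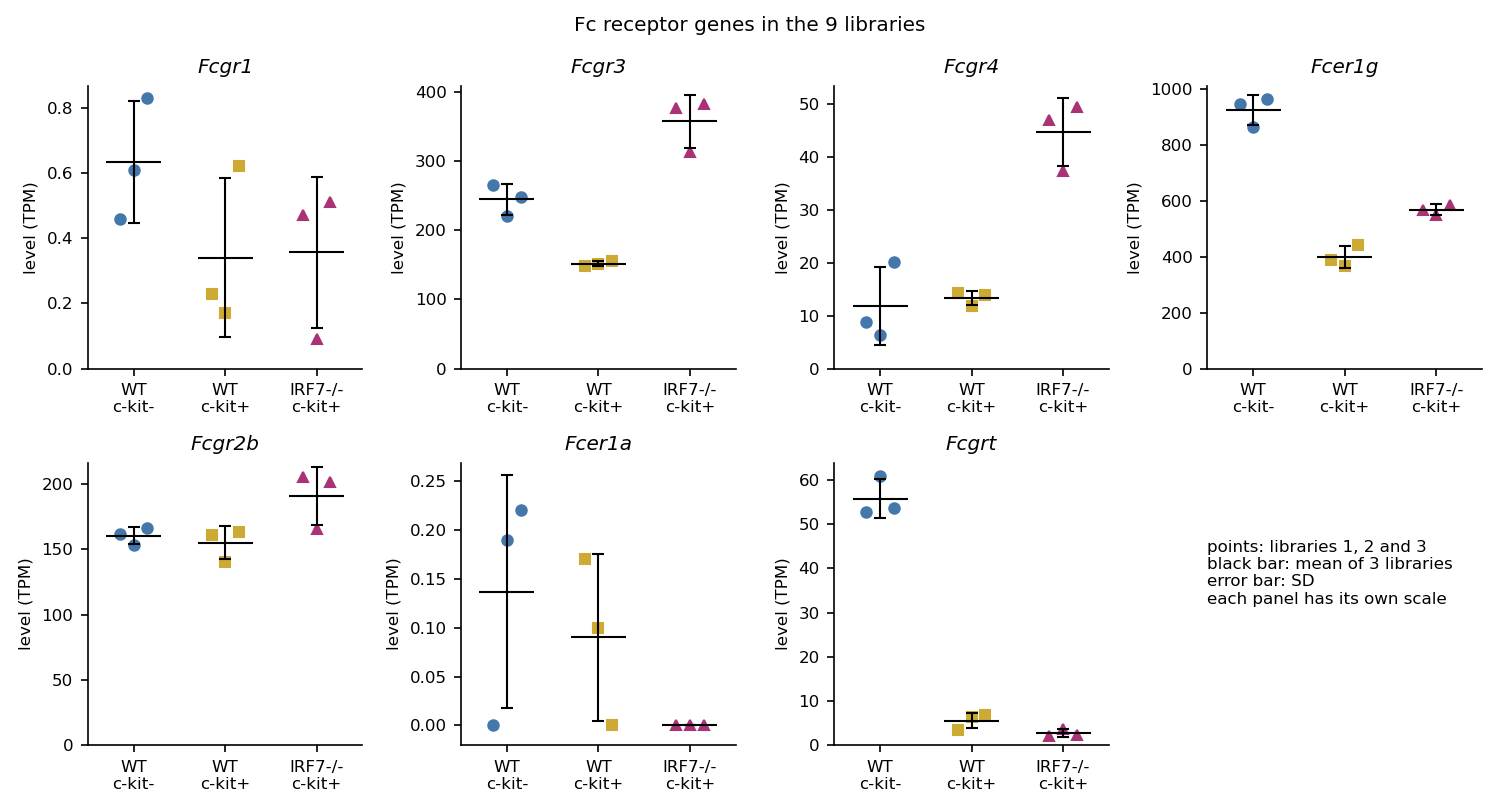
Level in TPM (y axis, a scale for each gene) of the 7 Fc receptor genes by group (x axis), with points for the 3 libraries of a group, a bar for their mean and an error bar for the SD. Fcgr3 and Fcgr4 are highest in the libraries labelled IRF7-/- (357 and 44.7 TPM in the mean), Fcer1g and Fcgrt in WT c-kit- (925 and 55.9 TPM), and the levels of Fcgr2b lie between 141 and 206 TPM in all 9.

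Of the activating receptors, Fcgr3, the low-affinity IgG receptor (CD16), was 266, 221 and 248 TPM in WT c-kit- libraries 1, 2 and 3. It was 149, 151 and 156 TPM in WT c-kit+, and 377, 313 and 382 TPM across the libraries labelled IRF7-/-. The 3 groups did not overlap, with the c-kit+ WT libraries lowest and within a narrow range. The log2 fold change of Fcgr3 in the labelled libraries against WT c-kit+ was 1.22 (SE 0.08, limma adjusted p = 0.000134). Over all genes tested the median log2 fold change of this comparison was 0.12, and relative to it Fcgr3 was at 1.11. Fcgr3 was lower in WT c-kit+ than in WT c-kit-, at -0.68 (SE 0.08, limma adjusted p = 0.000638), under the fold threshold.

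Fcgr4, the mouse receptor for IgG2a and IgG2b, was 8.74, 6.42 and 20.2 TPM in WT c-kit-. It was 14.2, 11.8 and 13.85 TPM in WT c-kit+, and 47.1, 37.4 and 49.6 TPM across the libraries labelled IRF7-/-. Every labelled library was above every WT library, while the WT groups overlapped because WT c-kit- library 3 was high. That library also had the highest neutrophil marker sum of its group. Fcgr4 rose by a log2 fold change of 1.67 against WT c-kit+ (SE 0.13, limma adjusted p = 0.000183), which is 1.55 over the median gene, and by 1.98 against WT c-kit- (SE 0.37, limma adjusted p = 0.00357). Between the WT groups the value was 0.31 (95% interval -0.57 to 1.18, limma adjusted p = 0.542). Without WT c-kit- library 3 it was 0.75 (limma adjusted p = 0.0149) and without library 2 it was -0.01 (limma adjusted p = 0.984).

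Fcgr1, the high-affinity IgG receptor (CD64), was at most 0.83 TPM in any library. It was 0.46, 0.61 and 0.83 TPM in WT c-kit-, 0.23, 0.17 and 0.62 TPM in WT c-kit+, against 0.47, 0.09 and 0.51 TPM across the labelled libraries. All 3 groups overlapped. It did not reach the minimum of 1 TPM in any of the 9 libraries and was not tested.

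The common gamma chain Fcer1g was 947, 864 and 965 TPM in WT c-kit-. It was 387, 365 and 443 TPM in WT c-kit+, against 569, 549 and 586 TPM across the labelled libraries. No group overlapped another, and the labelled libraries lay between the WT groups. Fcer1g fell by 1.22 on the log2 scale from WT c-kit- to WT c-kit+ (SE 0.09, limma adjusted p = 0.000112). Against WT c-kit+ the labelled libraries were higher by 0.52 (SE 0.08, limma adjusted p = 0.00267), that is 0.40 over the median gene, which did not reach the fold threshold. Against WT c-kit- they were at -0.70 (SE 0.06, limma adjusted p = 0.000125), also short of it.

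The inhibitory receptor Fcgr2b varied least. It was 162, 153 and 166 TPM in WT c-kit-, 161, 141 and 163 TPM in WT c-kit+, against 206, 165 and 201 TPM across the labelled libraries. The labelled libraries were all above WT c-kit+ but overlapped WT c-kit-. The log2 fold changes were 0.29 against WT c-kit+ (95% interval 0.05 to 0.54, limma adjusted p = 0.0515) and 0.24 against WT c-kit- (0.02 to 0.46, limma adjusted p = 0.0568). Without labelled library 2 they were 0.39 and 0.34 (limma adjusted p = 0.0134 and 0.00487). These p-values were the lowest over all alternatives, which ran up to 0.271 and 0.169. Between the WT groups it was -0.05 (-0.23 to 0.13, limma adjusted p = 0.622), a value whose sign turned under other scalings.

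Because Fcgr2b and Fcgr3 share sequence, their sum was fitted as well. It was 427, 374 and 414 TPM in WT c-kit-, 310, 292 and 319 TPM in WT c-kit+, against 583, 478 and 584 TPM across the labelled libraries, with no overlap between groups. The log2 fold change of the sum was 0.83 between the c-kit+ groups (SE 0.09, limma adjusted p = 0.000723) and -0.40 between the WT groups (SE 0.07, limma adjusted p = 0.00493). In the labelled libraries against WT c-kit- it was 0.43 (SE 0.10, limma adjusted p = 0.00746). None of these values reached the fold threshold. The coding sequences differ in length (1020 bases in Fcgr2b-201, 801 in Fcgr3-201), so the sum of TPM also depends in part on how shared reads were divided.

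Fcer1a was 0.22 TPM or less in every library and was listed at 0 in all 3 labelled libraries, in WT c-kit- library 1 and in WT c-kit+ library 3. It was not tested. Its partner Ms4a2, the beta chain of the high-affinity IgE receptor, was 1.51, 1.80 and 3.58 TPM in WT c-kit-, 5.96, 13.01 and 8.87 TPM in WT c-kit+, against 8.06, 5.04 and 8.46 TPM across the labelled libraries. Ms4a2 rose in both c-kit+ groups against WT c-kit-, with log2 fold changes of 1.63 in WT c-kit+ (limma adjusted p = 0.00709) and 1.34 in the labelled libraries (limma adjusted p = 0.00601). The mast cell and basophil markers summed to 39.9 to 71.6 TPM in WT c-kit-, 56.5 to 107 TPM in WT c-kit+ and 209 to 261 TPM in the labelled libraries. Of that list of 10, 5 to 7 were at 1 TPM or more in the mean of a group. Hdc, the histidine decarboxylase, made most of the labelled sum with 105 to 179 TPM, while the mast cell tryptases Tpsab1 and Tpsb2 were listed at 0 in all libraries. Over the 9 libraries Mcpt8 was 10.6 to 44.7 TPM, Cpa3 7.44 to 37.9 TPM and Gata2 10.1 to 20.0 TPM. Prss34, Cd200r3 and Cma1 stayed at 3.38 TPM or less. Apart from Ms4a2, the markers of this list were named after their values were seen.

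The neonatal receptor Fcgrt showed the widest range of the members. It was 52.8, 61.05 and 53.7 TPM in WT c-kit-, 3.5, 6.3 and 6.76 TPM in WT c-kit+, against 2.06, 3.67 and 2.21 TPM across the labelled libraries. The c-kit negative libraries stood well above all others. Fcgrt fell by 3.16 on the log2 scale in WT c-kit+ (SE 0.21, limma adjusted p = 7.3e-05) and by 3.99 in the labelled libraries (SE 0.17, limma adjusted p = 9.82e-06). Between the c-kit+ groups it was at -0.82 (95% interval -1.45 to -0.20, limma adjusted p = 0.0386), and at -0.94 against the median gene, with an overlap of 1 library on each side. Over 13 other settings its adjusted p ran from 0.0150 to 0.114. The value did not reach the fold threshold, and it passed it at -1.02 with a pseudocount of 0.1 (limma adjusted p = 0.0401), at -1.07 without WT c-kit+ library 1 and at -1.02 without labelled library 2.

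B2m, the light chain of the neonatal receptor and of MHC class I, did not follow Fcgrt. It was 2167, 2269.8 and 2352 TPM in WT c-kit-, 2056, 1984 and 1692 TPM in WT c-kit+, against 4027, 3577 and 2748 TPM across the labelled libraries, which stood above all others. Its log2 fold change was 0.84 between the c-kit+ groups (SE 0.16, limma adjusted p = 0.00514).

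Counted together, 5 of the 7 members passed the filter on low values in each comparison. The 3 comparisons share libraries, so their values are given side by side and not as separate support. In the labelled libraries against WT c-kit+ 2 members rose (6.30% of 13238 genes did) and 0 fell (5.39%). At an unadjusted limma p under 0.05, whatever the fold, 4 members were higher (36.3% of genes) and 1 lower (18.9%). In that comparison 4 of the 5 had an adjusted p under 0.05, against 48.0% of genes, and 4 did not overlap between the groups, against 59.1%. In WT c-kit+ against WT c-kit- 0 rose (4.83% of 13261 genes) and 2 fell (9.61%), and at an unadjusted limma p under 0.05 0 were higher (17.7%) and 3 lower (32.3%). There 3 had an adjusted p under 0.05 (41.6%) and 3 did not overlap (54.4%). Over all genes of that comparison 33.5% of calls were higher, and 43.7% when values were centred on the median gene, with 2 members lower in both cases. In the labelled libraries against WT c-kit- 1 rose (8.40% of 13510 genes) and 1 fell (11.9%), 4 had an adjusted p under 0.05 (59.4%) and 4 did not overlap (67.1%). So many genes met the criteria of adjusted p and of overlap that these counts over 5 members say little about the members. The median log2 fold change of the members tested was 0.52, -0.68 and 0.24 in the 3 comparisons, beside 0.12, -0.08 and 0.03 over all genes. An exact permutation test over libraries, two-sided, cannot go below p = 0.1 with 3 against 3. It gave 0.1 for Fcgr3 and Fcer1g in all comparisons, for Fcgr2b between the c-kit+ groups, for Fcgr4 in both with the labelled libraries and for Fcgrt in both with WT c-kit-. The remaining values were 0.2 for Fcgr2b in the labelled libraries against WT c-kit- and for Fcgrt between the c-kit+ groups, and 0.6 for Fcgr2b and Fcgr4 between the WT groups.

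**Figure D2:**
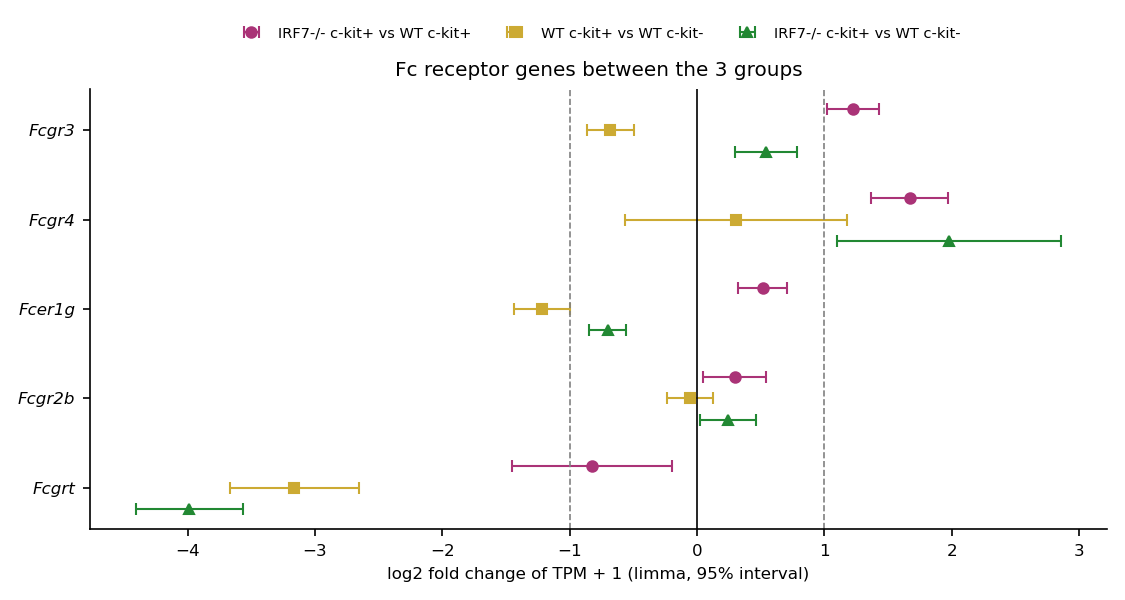
Log2 fold change of TPM + 1 (x axis, limma estimate with its 95% interval) of the 5 Fc receptor genes tested (y axis) in the 3 comparisons, with dashed lines at the fold threshold. Fcgr3 and Fcgr4 lie right of it in the labelled libraries against WT c-kit+ (1.22 and 1.67), and Fcgrt lies far left of it in both comparisons with WT c-kit- (-3.16 and -3.99). Fcgr2b stays between the dashed lines, at 0.29 and 0.24 in the labelled libraries against WT c-kit+ and WT c-kit- and at -0.05 between the WT groups.

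Ratios within a library do not depend on its total. Fcgr3 stood to Fcgr2b at 1.64, 1.44 and 1.49 in WT c-kit-, at 0.923, 1.07 and 0.952 in WT c-kit+ and at 1.83, 1.89 and 1.90 in the labelled libraries. The groups did not overlap in this ratio, but it depends on how reads shared by these genes were divided, which is not given. Fcgr2b made 46.3% to 49.7% of the summed level of the 4 IgG receptor genes in WT c-kit+, 37.0% to 40.2% in WT c-kit- and 31.8% to 32.6% in the labelled libraries. Fcgr4 made 7.24% to 7.82% of it in the labelled libraries and 1.69% to 4.63% in the others. These shares depend on the same division of reads.

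The gamma chain was then set beside the IgG receptors that use it, without the other receptors that do. The level of Fcer1g was 3.45, 3.79 and 3.59 times the summed level of Fcgr1, Fcgr3 and Fcgr4 in WT c-kit-, 2.37, 2.24 and 2.61 times in WT c-kit+, against 1.34, 1.57 and 1.36 times across the labelled libraries. The groups did not overlap, and the ratio was lowest in the labelled libraries, where the summed receptors reached 402 ± 45.1 TPM (SD, n = 3) against 165 ± 3.99 TPM in WT c-kit+. These ratios are descriptions, were not tested and also depend on the division of reads between Fcgr2b and Fcgr3.

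**Figure D3:**
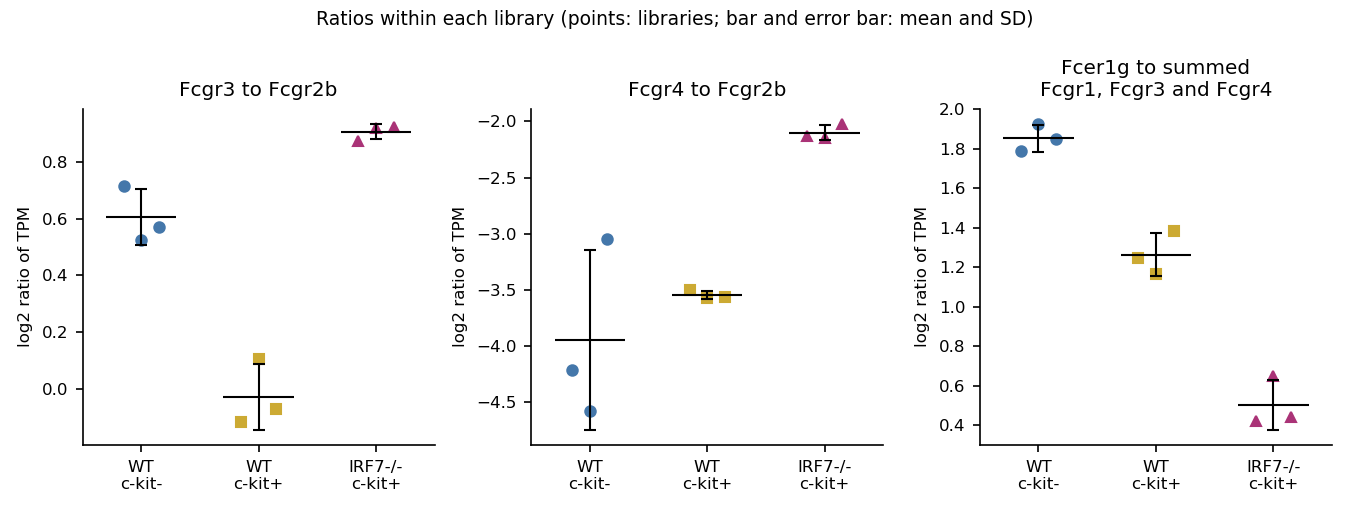
Log2 ratio of TPM within each library (y axis) of Fcgr3 to Fcgr2b, of Fcgr4 to Fcgr2b and of Fcer1g to the summed activating receptors, by group (x axis), with points for libraries, a bar for the mean and an error bar for the SD. Fcgr3 to Fcgr2b is near 0 in WT c-kit+ (mean -0.03) and 0.91 in the labelled libraries, where Fcer1g to the summed receptors is lowest (0.50). The ratios depend on how reads shared by Fcgr2b and Fcgr3 were divided.

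The members on chromosome 1 share their stretch with 8 other protein-coding genes from Fcrla to Fcer1g, of which 4 passed the filter between the c-kit+ groups. Pcp4l1, a gene of the Purkinje cell protein 4 family that lies between Fcgr3 and Fcer1g, was 21.45, 19.65 and 22.25 TPM in WT c-kit-, 12.4, 14.8 and 11.8 TPM in WT c-kit+, against 61.6, 49.0 and 71.25 TPM across the labelled libraries. It rose there by a log2 fold change of 2.13 (SE 0.15, limma adjusted p = 0.000149), the largest of the genes tested at the locus. Tomm40l, which is like a subunit of the mitochondrial import pore, was at 0.72 (limma adjusted p = 0.00452), Cfap126, a cilium gene, at 0.90 (limma adjusted p = 0.0175) and Sdhc, a subunit of succinate dehydrogenase, at 0.21 (limma adjusted p = 0.0499). With Fcgr2b, Fcgr3, Fcgr4 and Fcer1g, all 8 genes tested here had values above 0. The median over all genes was 0.12, so most genes did too. Relative to that median the 8 ran from 0.09 for Sdhc to 2.01 for Pcp4l1. Cfap126 was near the filter, at 0.72 to 1.27 TPM in WT c-kit+. Between the WT groups none of these 4 neighbours passed both thresholds in limma, 1 of them had an unadjusted p under 0.05, and this gene, Pcp4l1, was at -0.66 (limma adjusted p = 0.0032). No gene overlapping a member exceeded 0.34 TPM in a library, among them the antisense genes Gm38204 at Fcgr2b and Gm45669 at Fcgrt, which a kit that does not mark strand cannot tell apart from the member.

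**Figure D4:**
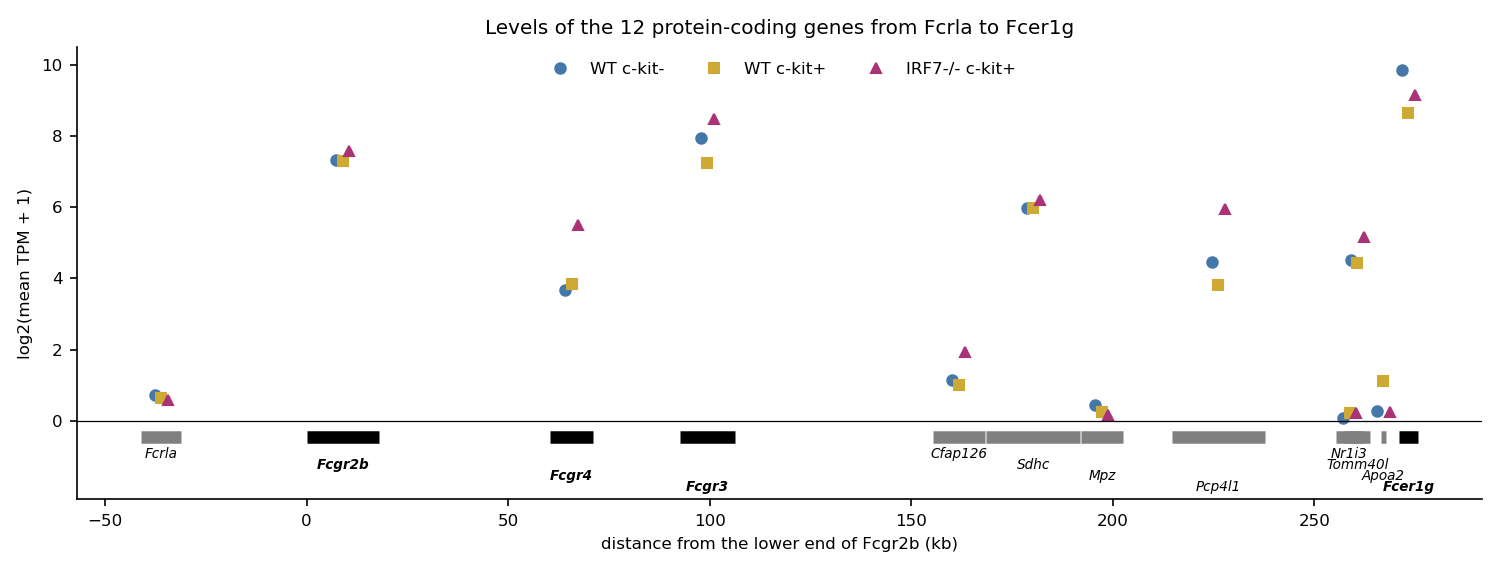
Log2 of the mean TPM + 1 (y axis) of the 12 protein-coding genes from Fcrla to Fcer1g against distance from the lower end of Fcgr2b in kb (x axis), with 1 symbol a group and bars below for the genes, members in black. Fcgr4, Fcgr3 and Pcp4l1 stand higher in the labelled libraries than in WT c-kit+, and Sdhc differs little.

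Of 10 other Fc receptor genes, 1 passed the filter between the c-kit+ groups. This was Trim21, the cytosolic antibody receptor, at 25.1 ± 3.72 TPM in the labelled libraries and 14.3 ± 2.43 TPM in WT c-kit+ (SD, n = 3 each; log2 fold change 0.77, limma adjusted p = 0.00656). Fcrl1, a B cell gene, fell from 1.89 ± 0.51 TPM in WT c-kit- to 0.40 ± 0.09 TPM in WT c-kit+ (log2 fold change -1.03, limma adjusted p = 0.00462), a call that was lost under quantile normalization, on centred values and without WT c-kit- library 3. The B cell markers Ms4a1 and Pax5 did not exceed 0.32 TPM in any library, while Cd79b was 25.8 to 37.1 TPM. Cd22, another marker of that list, was 8.81, 7.77 and 12.9 TPM in WT c-kit-, 2.06, 2.98 and 5.11 TPM in WT c-kit+, against 0.15, 0.16 and 0.12 TPM across the labelled libraries. It fell between the WT groups (log2 fold change -1.34, limma adjusted p = 0.0106) and between the c-kit+ groups (-1.88, limma adjusted p = 0.00164), and its part in the values of Fcrl1 and Fcgr2b was not tested. These markers were named after their values were seen.

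The kinases and adaptors that carry the activating signal were read from a list of 24, of which 22 were tested. Between the c-kit+ groups 1 rose (6.30% of all genes did) and 1 fell (5.39%). Btk, the kinase downstream of Syk, rose from 64.2 ± 1.34 to 140.5 ± 2.48 TPM in the labelled libraries (SD, n = 3 each; log2 fold change 1.12, limma adjusted p = 2.41e-05), and Fgr, a Src family kinase, fell from 45.7 ± 12.5 to 9.26 ± 0.89 TPM (log2 fold change -2.15, limma adjusted p = 0.000423). Without the neutrophil markers and with TPM rescaled, Btk was no longer past the fold threshold. Syk itself was lower in the labelled libraries (80.4 ± 5.32 against 112 ± 10.9 TPM, log2 fold change -0.47, limma adjusted p = 0.00549) without reaching it. In WT c-kit- Syk was 119 ± 16.3 TPM.

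Between the WT groups 6 of the 22 fell in c-kit+ cells (9.61% of all genes did) and 1 rose (4.83%). Those with the largest changes were Lat2 (log2 fold change -2.24), an adaptor of Fc receptor signalling, Vav2 (-2.01), a guanine nucleotide exchange factor, the Src family kinase Fyn (-1.999) and Lat (1.503), the adaptor best known from T cells, which rose from 1.35 ± 0.26 to 5.67 ± 0.92 TPM. In the labelled libraries against WT c-kit-, 8 fell (11.9% of all genes did) and 1 rose (8.40%). Among them were Fgr (-2.08), the Src family kinases Lyn (-1.96) and Fyn (-1.92) and again Lat at 1.55. Lyn was 192 ± 10.7 TPM in WT c-kit-, 74.6 ± 5.002 TPM in WT c-kit+ and 48.5 ± 2.81 TPM in the labelled libraries. The median log2 fold change of the list was 0.06, -0.29 and -0.46 in the 3 comparisons, beside 0.12, -0.08 and 0.03 over all genes.

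All 12 genes of the inhibitory arm were tested, and the shares of all genes called are those given for the kinases and adaptors. Between the c-kit+ groups Inppl1, the phosphatase SHIP2, rose from 6.66 ± 2.45 to 23.0 ± 1.33 TPM (log2 fold change 1.70, limma adjusted p = 0.00116) and Pag1, a membrane anchor for Csk, fell from 18.45 ± 3.79 to 6.95 ± 2.20 TPM (log2 fold change -1.31, limma adjusted p = 0.00358). Inpp5d, the phosphatase SHIP1 that Fcgr2b recruits, was 179 ± 21.6 and 153 ± 11.99 TPM in these groups (log2 fold change 0.21, limma adjusted p = 0.125). Between the WT groups Inppl1 (-2.29), Cblb (-1.13), a ubiquitin ligase, and Sla (-1.02), an adaptor, fell and Dok2 (1.55), an adaptor that damps Ras, rose. On centred values Inppl1 and Dok2 alone of these passed, and without WT c-kit- library 3 Sla did not. Against WT c-kit-, Pag1 (-1.75) and Sla (-1.33) fell in the labelled libraries, and so did the phosphatase gene Ptpn6, which lay at the fold threshold and did not pass on centred values or without WT c-kit- library 3.

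The actin machinery that closes the phagocytic cup was read from 29 genes, all tested. Between the c-kit+ groups 1 fell (5.39% of all genes did) and the other 28 did not pass. Gsn, which severs actin filaments, went from 180.2 ± 43.7 to 31.7 ± 2.31 TPM (log2 fold change -2.44, limma adjusted p = 0.000164). Wipf1 (-1.10), a partner of the actin regulator WASP, fell between the WT groups (9.61% of all genes did). On centred values Wipf1 did not pass while Gsn rose, as Gsn also did without WT c-kit- library 3. In the labelled libraries against WT c-kit- Gsn (-1.50), Wasf2 (-1.05), Cyfip1 (-1.004) and Nckap1l (-1.003) fell (11.9% of all genes did). The last 3 are parts of the WAVE complex, and on centred values only Gsn of the 4 passed. Without WT c-kit- library 3 Nckap1l did not pass.

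Of 9 other receptors and adaptors of ITAM signalling, 4 passed the filter between the c-kit+ groups and 2 of them rose (6.30% of all genes did). Clec4e and Clec4d, C-type lectins that use the gamma chain Fcer1g, rose in the labelled libraries against WT c-kit+, from 4.25 ± 0.30 to 20.5 ± 4.58 TPM (log2 fold change 2.01, limma adjusted p = 0.00026) and from 1.67 ± 0.97 to 11.9 ± 1.17 TPM (log2 fold change 2.34, limma adjusted p = 0.000994). Of 5 tested between the WT groups, Clec4e (-2.65), Clec4n (-2.36) and Clec4d (-1.99) fell in WT c-kit+ (9.61% of all genes did). Clec4d and Clec4e, like Fcgr3, had their lowest level in WT c-kit+. Of 5 tested in the labelled libraries against WT c-kit-, Clec4n (-2.80) fell (11.9% of all genes did). Tyrobp, the adaptor DAP12, was 1329 ± 48.4 and 1282 ± 76.9 TPM in the c-kit+ groups (SD, n = 3 each; log2 fold change 0.05, 95% interval -0.11 to 0.22, limma adjusted p = 0.559).

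**Figure D5:**
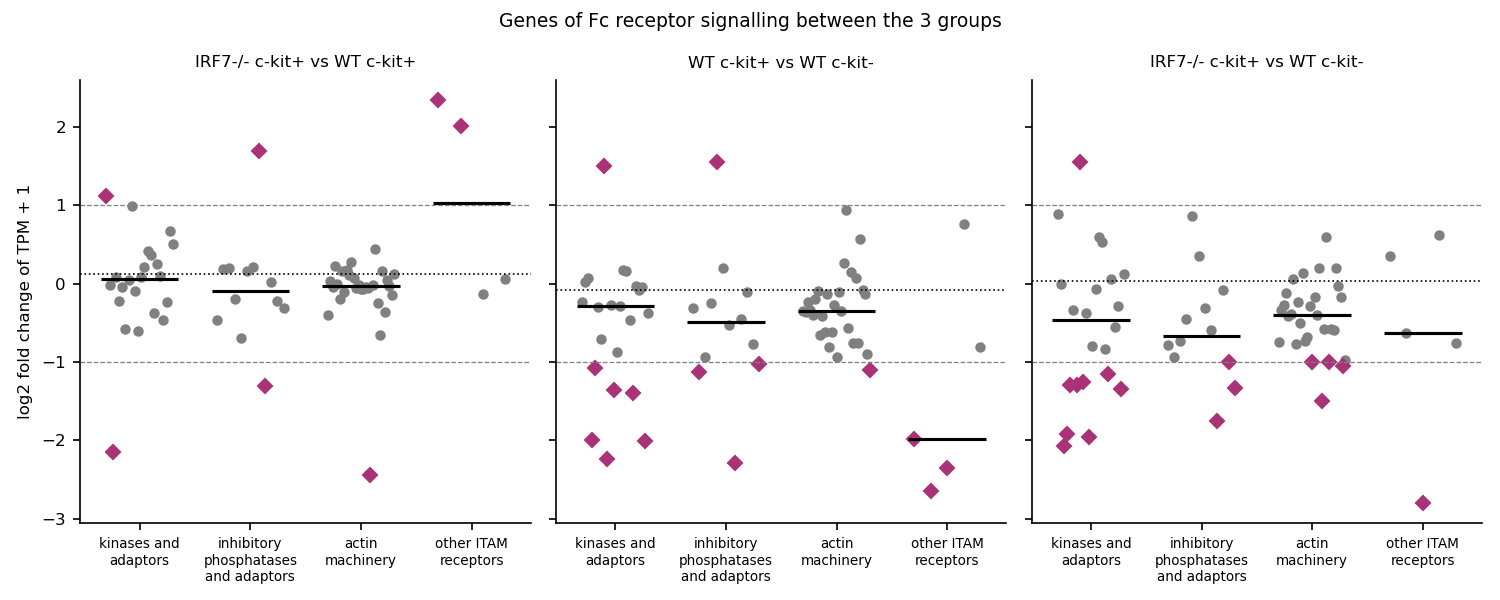
Log2 fold change of TPM + 1 (y axis) of the tested genes of 4 lists (x axis) in the 3 comparisons, with diamonds for genes past both thresholds, circles for the others, a bar for the list's median, a dotted line for the median of all genes and dashed lines at the fold threshold. Between the c-kit+ groups most genes lie near the dotted line (0.12), and against WT c-kit- the kinases and adaptors have medians of -0.29 and -0.46.

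Of 12 genes that respond to interferon-gamma, which is known to raise Fcgr1 and Fcgr4, 9 passed the filter between the c-kit+ groups. Of these, 3 rose (6.30% of all genes did) and 2 fell (5.39%) in the labelled libraries against WT c-kit+. The guanylate-binding proteins Gbp2 (log2 fold change 1.91, limma adjusted p = 0.00573) and Gbp3 (1.52, limma adjusted p = 0.000823) and the chemokine gene Cxcl10 (1.16, limma adjusted p = 0.012) rose. Irf8, a transcription factor of monocytes, fell from 120.2 ± 23.4 to 41.7 ± 20.6 TPM (-1.59, limma adjusted p = 0.007) and Ciita, the activator of MHC class II, from 1.82 ± 0.36 to 0.04 ± 0.03 TPM (-1.43, limma adjusted p = 0.000736). Of 9 tested between the WT groups, Irf8 (-2.08) and Gbp2 (-1.06) fell (9.61% of all genes did). The call of Gbp2 was lost under quantile normalization, on centred values and without WT c-kit- library 3. Of 9 tested in the labelled libraries against WT c-kit-, Gbp3 (1.18) and Cxcl10 (1.09) rose (8.40% of all genes did). Irf8 (-3.66) and Ciita (-1.94) fell there (11.9%).

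The genes whose pattern was most like that of each member were ranked by the root mean square difference of centred log2(TPM + 1) over the 9 libraries, among 11063 genes. For Fcgrt they were L1cam (0.15), Csf1r (0.18), the receptor of macrophage colony-stimulating factor, and P2rx7 (0.19), beside a range of 4.34 for Fcgrt itself. Csf1r, also a monocyte marker, was 380.1 to 423 TPM in WT c-kit-, 36.1 to 65.5 TPM in WT c-kit+ and 25.0 to 32.8 TPM in the labelled libraries, so its order over the groups was that of Fcgrt. For Fcer1g they were N4bp2l1 (0.08), Soat1 (0.09) and Map7d1 (0.11), and for Fcgr3 they were Snx8 (0.09), Pfkp (0.12) and Eef1akmt1 (0.12). For Fcgr4 the nearest were Vmn2r97 (0.24), a member of a family of near-identical copies whose level is uncertain, Lpcat2 (0.25) and Adgrb1 (0.28). Fcgr2b, with a range of only 0.55, was nearest to Zbtb22 (0.05), Csnk2b (0.06) and 0610010K14Rik (0.06).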

How the data were processed

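The deposited table holds 1 TPM column for each of the 9 libraries and was used for all 55536 genes. The authors' aligner, counter, genome build and treatment of shared reads are not given in the sources used here, and the unit was read from the values, which sum to 987468 to 992231 TPM a library. The study calls the assay a microarray, while the labels describe TruSeq RNA libraries, a kit that does not mark strand. TPM keeps no depth, so counting intervals and detection limits cannot be given, and the precision is known only from 3 libraries a group. A value of exactly 0 is given as listed at 0.

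The members and gene lists were chosen with earlier results of these data known. For every comparison the 6 libraries concerned were fitted alone with limma 3.58.1 in R 4.3.3 (eBayes with a trend) on log2(TPM + 1), for genes that reached 1 TPM in 3 or more of these libraries. A fold change is on that scale, which understates changes of low genes. P-values were adjusted by Benjamini-Hochberg over all genes tested, and a call needed an adjusted p under 0.05 with a log2 fold change of 1 or more in either direction. A 95% interval is limma's. The fit was tested on simulated data first. Levels, ratios, exact permutation tests and figures used Python 3.11.15, pandas 2.3.3, scipy 1.17.1 and matplotlib 3.10.9.

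Positions were taken from GENCODE M21 on GRCm38, in which all 55536 gene IDs were found. Promoters came from RefSeq on GRCm38.p6. Named genes were the 7 members, from each list up to 4 called genes a comparison with the largest change, for each member at 5 TPM or more in a group mean the 3 genes with the most similar centred pattern, and Irf7 and Kit. B2m, Trim21, Syk, Inpp5d, Tyrobp, Tomm40l, Cfap126 and Sdhc fall outside this rule and were chosen after their values were seen, as were the levels quoted for Lyn between groups. The alternatives tried were quantile normalization, no filter, a stricter filter (5 TPM), another pseudocount (0.1), centring on the median gene, 1 fit of all 9 libraries, the replicate number as a block and leaving out each library. The B cell marker list is reported here only in part and without its sum.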

Additional observations from a re-analysis of the deposited data

How the results depend on the processing

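Fcgr3, Fcgr4, Fcer1g and Fcgrt kept their direction in every alternative run, except Fcgr4 between the WT groups (0.31), which was -0.010 without WT c-kit- replicate 2 and ran from -0.010 to 0.75 over the replicates left out. Fcgr2b between the WT groups (-0.05) turned to 0.11 under quantile normalization, 0.10 on centred values, 0.067 with the neutrophil markers left out and TPM rescaled, and 0.017 without WT c-kit+ replicate 2, with a range of -0.092 to 0.017 over the replicates left out. The setting without neutrophil markers was chosen after seeing the data. Members called numbered 2 to 3, 2 and 2 in the 3 comparisons, where the third was Fcgrt. Of all genes, 1548 were called between the c-kit+ groups and 1015 with a filter of 5 TPM, under which fewer genes were tested and Fcgrt had no value. Of 9 pairs of same-numbered libraries 1 had r over 0.1 (range -0.07 to 0.24), and different-numbered pairs ran from -0.18 to 0.14. The deviations were taken from means of 3 libraries, so these values cannot decide whether the numbers pair the samples. With the replicate block 1549, 1950 and 2749 genes were called in place of 1548, 1916 and 2738, and Fcgr2b had an adjusted p of 0.0140 between the c-kit+ groups (0.0134 to 0.271 over all alternatives) and 0.0292 against WT c-kit- (0.00487 to 0.169). The summed Fcgr2b and Fcgr3 had an adjusted p of 0.0635 between the WT groups under quantile normalization. The cause of these shifts was not tested. Depth is unknown, so the low levels of Fcgr1 and Fcer1a have no counting limit.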

Other observations

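The other marker lists gave these summed levels. The macrophage markers summed to 67.8 to 106 TPM in WT c-kit-, 48.7 to 76.9 TPM in WT c-kit+ and 73.8 to 104 TPM in the libraries labelled IRF7-/-, most of it Adgre1 (23.0 to 97.1 TPM over the 9 libraries). Of the 5 tested between the WT groups, Adgre1 fell in WT c-kit+ (9.61% of all genes did). The other 4, C1qa, C1qb, C1qc and Slc40a1, rose (4.83% of all genes did), and the median log2 fold change was 1.28. The C1q genes were near the filter, at 0.43 to 1.05 TPM in WT c-kit-, and the sums of the WT groups overlapped. The dendritic cell markers summed to 72.3 to 113, 10.4 to 22.2 and 8.25 to 57.5 TPM in the same order, and the highest labelled value was 1 library in which Flt3 was 56.9 TPM. The T and NK cell markers summed to 0.97 to 3.04, 136 to 194 and 91.4 to 166 TPM, with 1 of the 8 at 1 TPM or more in the mean of each group, Nkg7. The endothelial and stromal markers summed to 44.4 to 59.5, 16.8 to 30.6 and 32.2 to 55.9 TPM, nearly all of it Lepr (15.9 to 58.4 TPM over the 9 libraries), while Cdh5, Kdr and Emcn stayed at 0.24 TPM or less. The erythroid markers summed to 6.67 to 9.47, 4.34 to 10.1 and 2.70 to 6.29 TPM. The genes named here were chosen after their values were seen.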
